A study of Mus musculus with 12 samples.

Results

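The genes described here make nitric oxide and itaconate or supply and compete for what those reactions need. They were chosen by name: Nos2, Nos3, Acod1, Gch1, Slc7a2 and Arg2, each matched to its Ensembl mouse identifier, which gave 6 of the 55414 genes in the count table. The transcripts were measured in lung and liver of wild-type C57BL/6J mice 6 h after cecal ligation and puncture (CLP) or after sham surgery. In CLP the blind end of the large bowel is tied off and pierced, so that gut contents leak into the abdomen, and the operation is a model of sepsis. The 4 groups were CLP lung, sham lung, CLP liver and sham liver, with 3 libraries each and 12 in all. All animals shared the genotype and strain, and age and sex were not given in the sources used here. The labels do not say whether the libraries of a group came from separate mice or whether a mouse gave both organs, and p-values therefore cover the variation among the libraries alone, which may be technical.

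Nitric oxide is a short-lived gas made from arginine by nitric oxide synthases, which need tetrahydrobiopterin as a cofactor. The endothelial enzyme Nos3 makes it in small amounts to relax vessels, whereas the inducible enzyme Nos2 is switched on by microbial products and cytokines in macrophages, hepatocytes and other cells. Itaconate is made by Acod1 from an intermediate of the mitochondrial citric acid cycle in activated macrophages, where it inhibits succinate dehydrogenase and sets off antioxidant responses.

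Total counts per library ran from 11298109 to 13590527 in CLP lung, from 11946233 to 12931365 in sham lung, from 10559895 to 13780640 in CLP liver and from 12060375 to 15854117 in sham liver. Levels are CPM, counts relative to library size, on sizes scaled across all 12 libraries, and a floor of 3 counts per library stood at 0.189 to 0.284 CPM of the unscaled totals. The levels and this floor in CPM are on different scales, so the floor is to be read against the counts. The organ labels fitted the marker genes: the summed CPM of 9 hepatocyte genes was 38.5 to 46.5 in CLP lung and 17.1 to 73.3 in sham lung, against 127185 to 162898 in CLP liver and 98449.6 to 138242 in sham liver. The summed CPM of 10 alveolar epithelium genes was 14876 to 17447 in CLP lung and 18305 to 19619 in sham lung, against 102 to 204 in CLP liver and 88.7 to 107 in sham liver. Hopx alone averaged 105 CPM in CLP liver and 92 CPM in sham liver and made up most of those liver sums. As the median over the 10 genes of the level in a liver library relative to the lung mean, on library totals, the lung share was 0.0831% to 0.128% in CLP liver and 0.0172% to 0.0489% in sham liver. Of the 8 such genes tested, 7 were higher in CLP liver. Taken at that median share, lung transcripts would account for 2.74 to 4.38 of the 207 to 408 Acod1 counts in the CLP liver libraries. The same share came to 0.384 to 0.614 of the 128 to 389 Nos2 counts and 0.619 to 0.988 of the 20 to 68 Arg2 counts.

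Promoter windows from RefSeq (GRCm38.p6, 250 bases before to 50 bases after the annotated start) matched 2 of the 6 genes, Acod1 and Gch1, both on chromosome 14. They are printed because no other gene of the 6 had a window. In the results that follow Acod1 was called higher after CLP in both organs, and Gch1 in lung but not in liver. Whether the windows bear on those calls was not tested. Both are written 5′ to 3′ on the strand of the gene, and capitals mark matches to short motifs searched on both strands.
Acod1, chr14:103046762-103047061, plus strand: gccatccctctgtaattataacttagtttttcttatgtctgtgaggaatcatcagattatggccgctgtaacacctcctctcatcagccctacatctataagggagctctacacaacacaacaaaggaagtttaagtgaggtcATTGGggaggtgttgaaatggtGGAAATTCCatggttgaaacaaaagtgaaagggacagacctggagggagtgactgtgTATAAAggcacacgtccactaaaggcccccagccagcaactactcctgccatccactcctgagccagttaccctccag
Gch1, chr14:47189364-47189663, minus strand: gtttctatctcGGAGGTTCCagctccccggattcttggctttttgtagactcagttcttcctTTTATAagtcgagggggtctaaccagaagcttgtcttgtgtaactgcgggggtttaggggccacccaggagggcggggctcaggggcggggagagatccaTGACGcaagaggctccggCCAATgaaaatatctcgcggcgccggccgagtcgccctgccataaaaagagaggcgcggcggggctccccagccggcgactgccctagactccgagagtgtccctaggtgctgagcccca
The Acod1 window was 47% G or C and the Gch1 window 60.3%, against a median of 52.7% over 32851 mouse promoter windows. In the Acod1 window TATAAA lay at -28 to -23 from the start, CCAAT on the reverse strand at -107 to -103, and the NF-kB type match GGAAATTCC, which reads as GGANNTTCC on both strands, at -85 to -77. In the Gch1 window CCAAT lay at -70 to -66 and TGACG at -88 to -84. TATAAA on the reverse strand lay at -188 to -183 of Gch1, and the NF-kB type match GGAGGTTCC at -239 to -231. No matched motifs overlapped other than the palindromic match read on both strands. TATAAA was present in 13.6% of all windows, CCAAT in 37.4%, TGACG in 20.8%, and GGGNNTTCC or GGANNTTCC in 9.78%. The motifs were chosen after the sequences had been seen, and a match describes letters and not a bound site.

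In lung, 4 of the 6 genes were called higher after CLP (Nos2, Acod1, Arg2 and Gch1) and none lower, and Nos3 and Slc7a2 were not called. In liver, 5 were called higher (Nos2, Acod1, Arg2, Nos3 and Slc7a2) and none lower, and Gch1 was not called. All 6 passed the low-count filter in both organs. Calls here are at a Benjamini-Hochberg adjusted p under 0.05 over all genes tested, from the quasi-likelihood test of edgeR. Over all genes tested, 23.9% were called higher and 24.9% lower in lung, and 21.4% were called higher and 21% lower in liver. The median log2 fold change of the 6 genes was 1.81 in lung and 2.26 in liver, beside -0.03 and -0.01 for all genes tested.

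**Figure D1:**
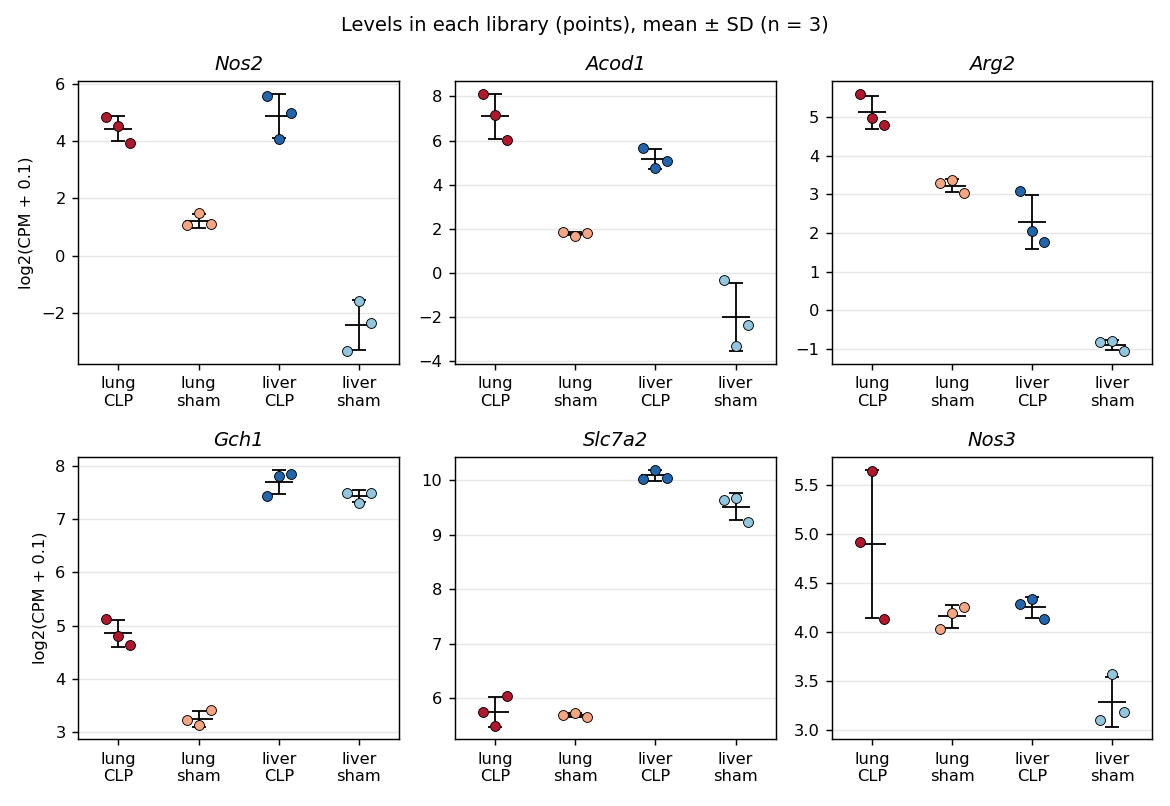
Level of each of the 6 genes in every library as log2(CPM + 0.1), with CLP left of sham within each organ; points are libraries and bars are the mean ± SD of these log values (n = 3). Nos2, Acod1 and Arg2 separate CLP from sham in both organs, Gch1 separates them in lung, and Slc7a2 and Nos3 separate them in liver.

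Nos2, on chromosome 11, encodes the inducible nitric oxide synthase. It had 28.3, 23.1 and 15.3 CPM in CLP lung, against 1.98, 2.72 and 2.06 CPM in sham lung. In CLP liver it had 48.0, 16.6 and 31.6 CPM (389, 128 and 192 counts), against 0, 0.238 and 0.0962 CPM (0, 2 and 1 counts) in sham liver. The CLP and sham libraries did not overlap in either organ. The lung rise was 10.0-fold, a log2 fold change of 3.32 ± 0.26 (SE, n = 3 each; edgeR, adjusted p = 9.72e-05). The fitted liver log2 fold change was 8.01 ± 0.72 (edgeR, adjusted p = 0.000229), but it rests on 3 counts in all sham liver libraries together. The ratio of summed counts, 709 in CLP liver to 3 in sham liver, was 259 on library totals, with an exact 95% interval of 88.1 to 1257 that covers counting error only. Each sham liver library was thus under the floor of 3 counts.

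Acod1 on chromosome 14 encodes the enzyme that makes itaconate. It had 272, 140.3 and 65.8 CPM in CLP lung, against 3.51, 3.14 and 3.37 CPM in sham lung. It had 50.4, 27.0 and 34 CPM in CLP liver (408, 208 and 207 counts), against 0.698, 0 and 0.0962 CPM in sham liver (6, 0 and 1 counts). The groups did not overlap in either organ, although the CLP lung libraries themselves spread widely. The log2 fold change in lung was 5.60 ± 0.60, or 48.4-fold (edgeR, adjusted p = 0.000757). In liver it was 7.10 ± 0.56 (edgeR, adjusted p = 0.000123). The liver counts summed to 823 in CLP and 7 in sham, a ratio of 129 on library totals with an exact 95% interval of 62.1 to 321. Of the 7 sham counts, 6 were in replicate 1, and without that library the fitted liver value was 9.09.

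Arg2, on chromosome 12, encodes the mitochondrial arginase, which splits arginine into ornithine and urea and so draws on the same substrate as the nitric oxide synthases. It had 48.4, 31.5 and 27.6 CPM in CLP lung, against 9.71, 10.2 and 8.09 CPM in sham lung. It had 8.4, 4.03 and 3.29 CPM in CLP liver (68, 31 and 20 counts), against 0.465, 0.477 and 0.385 CPM in sham liver (4, 4 and 4 counts). CLP lay above sham in every library of both organs. The log2 fold change was 1.96 ± 0.22 in lung (3.9-fold; edgeR, adjusted p = 0.000439) and 3.55 ± 0.49 in liver (11.7-fold; edgeR, adjusted p = 0.000775). Summed liver counts of 119 in CLP and 12 in sham gave a ratio of 10.8 on library totals, with an exact 95% interval of 5.98 to 21.6. In the GENCODE M21 annotation 285 of the 1428 exonic bases of Arg2 overlap Vti1b on the opposite strand, and the strand setting of the counting is not given in the sources used here.

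Gch1 encodes GTP cyclohydrolase, the rate-limiting enzyme of tetrahydrobiopterin synthesis. It had 35.0, 28.0 and 24.7 CPM in CLP lung, against 9.2, 8.62 and 10.6 CPM in sham lung, and the groups did not overlap. It had 174, 225 and 232 CPM in CLP liver, against 180.1, 158 and 180.3 CPM in sham liver, where 1 CLP library lay within the sham range. The lung log2 fold change was 1.65 ± 0.14, or 3.14-fold (edgeR, adjusted p = 0.000111). The liver value was 0.28 ± 0.13 and was not called (edgeR, adjusted p = 0.122). Without CLP liver replicate 1, the library inside the sham range, it was 0.41 and called (edgeR, adjusted p = 0.0339).

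Slc7a2, on chromosome 8, encodes the cationic amino acid transporter CAT2, through which arginine enters cells. It had 53.3, 44.5 and 65.3 CPM in CLP lung, against 51.2, 52.5 and 49.9 CPM in sham lung, and the groups overlapped. It had 1041, 1174 and 1057 CPM in CLP liver, against 798, 819 and 599 CPM in sham liver, with no overlap. The lung log2 fold change was 0.11 ± 0.13 (edgeR, adjusted p = 0.516), and it was -0.00 under upper-quartile scaling and -0.01 without CLP lung replicate 3. The liver log2 fold change was 0.56 ± 0.15, or 1.47-fold (edgeR, adjusted p = 0.0165). That call was lost with library totals in place of the scaled sizes (0.36, adjusted p = 0.0759) and without sham liver replicate 3 (0.43, adjusted p = 0.0508).

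Nos3 on chromosome 5 encodes the endothelial nitric oxide synthase. It had 30.1, 49.9 and 17.4 CPM in CLP lung, against 16.2, 18.1 and 19.0 CPM in sham lung. The CLP lung libraries spread widely: the 2 highest lay above all sham libraries and the lowest lay inside their range. It had 19.4, 20.1 and 17.4 CPM in CLP liver, against 8.49, 11.8 and 8.95 CPM in sham liver, with no overlap. The liver log2 fold change was 0.96 ± 0.16, or 1.95-fold (edgeR, adjusted p = 0.00214). The lung value was 0.89 ± 0.34 and was not called (edgeR, adjusted p = 0.0685). It passed with DESeq2 (0.92, adjusted p = 0.00621), with all 12 libraries in 1 fit (0.87, adjusted p = 0.0244) and without CLP lung replicate 3 (1.23, adjusted p = 0.00316), and fell short at 0.49 without CLP lung replicate 2. In the GENCODE M21 annotation 1040 of the 4132 exonic bases of Nos3 overlap the opposite-strand gene Gm15587, listed at 0 to 26 counts per library, and 294 bases overlap Atg9b.

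**Figure D2:**
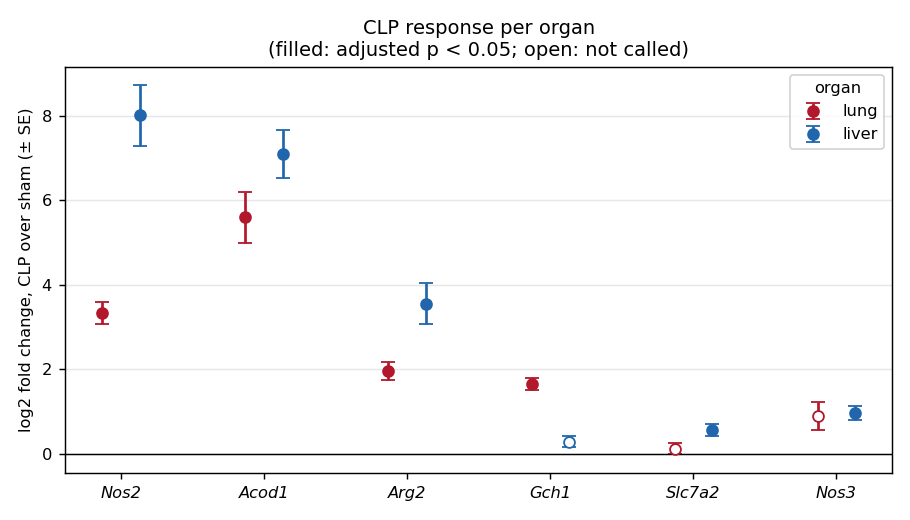
Log2 fold change of CLP over sham for each of the 6 genes in lung and liver, with bars of 1 SE from the fit of each organ (n = 3 libraries a group); filled points passed an adjusted p of 0.05. Acod1 is the highest in lung at 5.60 and Nos2 in liver at 8.01, while Gch1 is higher in lung (1.65) than in liver (0.28).

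The difference between the organs in their response, lung minus liver, was tested for each gene in 1 model of all 12 libraries. It passed for 2 of the 6 genes. Nos2 responded less in lung, by -4.79 ± 0.98 on the log2 scale (edgeR, adjusted p = 0.0058), a size that depends on the 3 counts of sham liver. Gch1 responded more in lung, by 1.34 ± 0.20 (edgeR, adjusted p = 0.000712). Over all genes tested 8.89% were called with a higher and 8.84% with a lower response in lung than in liver. Arg2 differed by -1.64 ± 0.62 and was not called (edgeR, adjusted p = 0.0875). It was called with DESeq2 (adjusted p = 0.0331). It was also called at -1.60 with the replicate number within each organ as a block (edgeR, adjusted p = 0.0279) and at -1.92 without CLP lung replicate 1 (edgeR, adjusted p = 0.031). The response of Acod1 differed by -1.56 ± 1.42 (adjusted p = 0.514), that of Slc7a2 by -0.48 ± 0.22 (adjusted p = 0.159) and that of Nos3 by -0.10 ± 0.42 (adjusted p = 0.937), none of them called by edgeR. The value of Acod1 ran from -3.59 to -0.98 when single libraries were left out, and that of Nos3 turned positive under several settings. These intervals are wide, and they do not show that the organs respond alike.

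Sham lung differed from sham liver in all 6 genes. Arg2 was higher in sham lung by 4.38 ± 0.45 (edgeR, adjusted p = 9.97e-07), Nos2 by 4.26 ± 0.93 (adjusted p = 0.00101), Acod1 by 3.66 ± 1.13 (adjusted p = 0.0117) and Nos3 by 0.87 ± 0.31 (adjusted p = 0.0192). Gch1 was lower in sham lung than in sham liver, by -4.19 ± 0.16 (edgeR, adjusted p = 3.15e-11), and so was Slc7a2, by -3.85 ± 0.17 (adjusted p = 1.36e-10). Over all genes tested 44.4% were higher and 36.5% lower in sham lung, and the median difference of all genes was 0.19. That median was 1.5 on library totals, so a difference between organs is to be read against it, and Nos3 then stood at 2.19. The calls of Nos3 and Acod1 were lost with limma-voom (adjusted p = 0.0669 and 0.0566) and without sham liver replicate 3 (edgeR, adjusted p = 0.0877 and 0.0555).

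The order of the 4 groups differed between genes. Acod1 was highest in CLP lung (159 ± 104 CPM, SD, n = 3), then in CLP liver (37.2 ± 12), sham lung (3.34 ± 0.186) and sham liver (0.265 ± 0.378), with no overlap between neighbours. Arg2 followed with 35.8 ± 11.1 CPM in CLP lung, 9.34 ± 1.11 in sham lung, 5.24 ± 2.76 in CLP liver and 0.442 ± 0.05 in sham liver, and sham lung overlapped CLP liver. On library totals Arg2 ran from 13.5 to 16.9 CPM in sham lung and from 1.89 to 4.93 CPM in CLP liver, with no overlap. Nos2 averaged 22.2 ± 6.58 CPM in CLP lung and 32.1 ± 15.7 CPM in CLP liver, which overlapped, above 2.25 ± 0.404 CPM in sham lung and 0.112 ± 0.12 CPM in sham liver. On library totals the order of the CLP groups of Nos2 turned, with 34.7 ± 9.7 CPM in lung and 18.7 ± 9.32 CPM in liver, still overlapping. Nos3 averaged 32.5 ± 16.3 CPM in CLP lung, 17.8 ± 1.42 in sham lung, 19.0 ± 1.41 in CLP liver and 9.75 ± 1.79 in sham liver, and the first 3 of these overlapped. On library totals sham lung (29.4 ± 2.49 CPM) lay above CLP liver (11 ± 0.86 CPM) for Nos3. Gch1 stood at 29.2 ± 5.23 CPM in CLP lung and 9.46 ± 1.0 in sham lung, below 211 ± 31.6 in CLP liver and 173 ± 12.6 in sham liver, and both liver groups overlapped. Slc7a2 stood at 54.3 ± 10.4 CPM in CLP lung and 51.2 ± 1.29 in sham lung, which overlapped, below 1091 ± 73.0 in CLP liver and 739 ± 121 in sham liver.

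Per kilobase of exon, the leading gene changed with surgery in lung but not in liver. CLP lung was led by Acod1 (60.7 CPM per kb) and Arg2 (25.1), followed by Nos3 (7.86), Slc7a2 (5.95), Nos2 (5.04) and Gch1 (4.68). Sham lung was led by Arg2 (6.54 CPM per kb) and Slc7a2 (5.6), with Acod1 at 1.27 and Nos2 at 0.51. CLP liver was led by Slc7a2 (119 CPM per kb) and Gch1 (33.7), ahead of Acod1 (14.2) and Nos2 (7.27). Sham liver was led by the same pair, Slc7a2 at 80.9 and Gch1 at 27.7 CPM per kb, with Acod1 at 0.101 and Nos2 at 0.0253. With the longest transcript as length Gch1 was at 8.33 CPM per kb in CLP lung and 60.0 in CLP liver, which puts it above Nos3 (7.86) and Slc7a2 (6.87) in CLP lung.

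Within small families the shares of level per kilobase moved with surgery. Nos2 made up 46.8%, 30.3% and 45.0% of the summed nitric oxide synthases Nos1, Nos2 and Nos3 in CLP lung, against 10.3%, 12.3% and 9.2% in sham lung. In liver it made up 69.9%, 43.5% and 62.8% in CLP, against 0%, 1.84% and 0.989% in sham. The neuronal enzyme Nos1 had 0 to 3 counts in every library, so these are shares between Nos2 and Nos3. Nos2 took the larger share in 2 of 3 CLP liver libraries and in no CLP lung library.

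Slc7a2 made up 60.5%, 56.3% and 71.0% of the cationic transporters Slc7a1, Slc7a2 and Slc7a3 in CLP lung, against 80.6%, 80.0% and 80.5% in sham lung. In liver the share was 98.8 ± 0.366% in CLP and 99.8 ± 0.064% in sham (SD, n = 3). Slc7a1, a transporter of the same substrates, averaged 37.0 ± 6.37 CPM in CLP lung against 11.8 ± 0.654 in sham lung, and 16.3 ± 4.93 CPM in CLP liver against 2.04 ± 0.951 in sham liver.

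Arg2 made up 95.8 ± 2.16% of the arginases Arg1 and Arg2 in CLP lung and 90.2 ± 1.49% in sham lung (SD, n = 3). In liver, where the cytosolic Arg1 of the urea cycle dominates, the share was 0.619%, 0.219% and 0.219% in CLP, against 0.0223%, 0.0201% and 0.0204% in sham. Arg1 itself averaged 2438 ± 392 CPM in CLP liver and 3305 ± 380.3 CPM in sham liver, a log2 fold change of -0.44 ± 0.15 (edgeR, adjusted p = 0.0474) whose call was lost under 6 alternatives. In lung Arg1 averaged 2.39 ± 1.1 CPM in CLP and 1.58 ± 0.223 CPM in sham and was not called (0.63 ± 0.34; edgeR, adjusted p = 0.154).

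Acod1 stood at 16.1, 10.2 and 7.25 times the Nos2 level per kilobase in CLP lung, against 2.98, 1.94 and 2.75 times in sham lung. In CLP liver it stood at 1.76, 2.73 and 1.81 times the Nos2 level, so the range of the CLP lung libraries lay above that of the CLP liver libraries. Arg2 stood at 5.28, 4.2 and 5.58 times Nos2 in CLP lung, against 15.1, 11.6 and 12.1 times in sham lung, and at 0.54, 0.748 and 0.322 times in CLP liver. The sham liver counts are too few for either ratio. These shares and ratios were not tested.

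**Figure D3:**
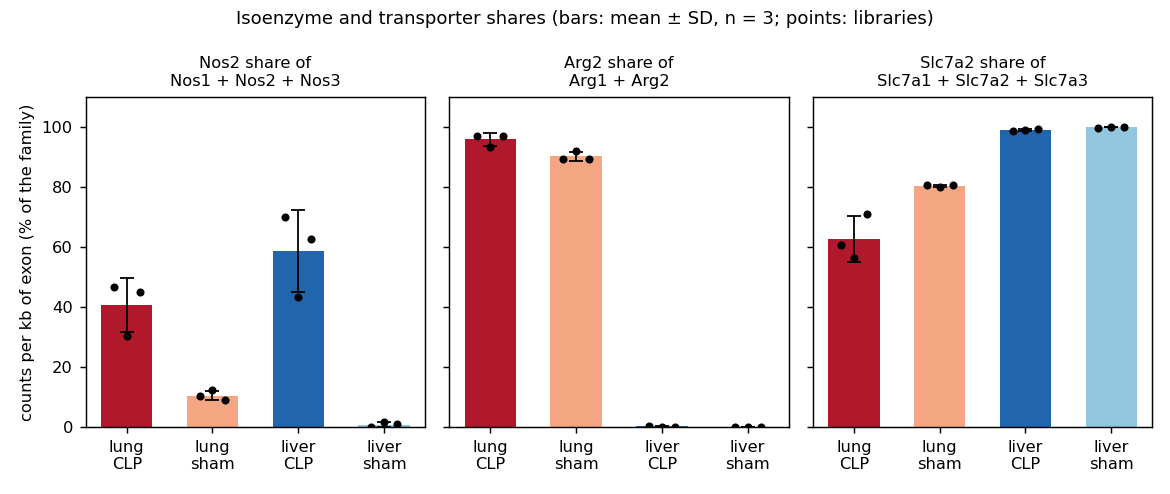
Shares of level per kilobase within a family for Nos2, Slc7a2 and Arg2 in percent, with CLP left of sham in each organ; bars are the mean ± SD (n = 3) and points are libraries. The Nos2 share is 30.3% to 46.8% in CLP lung against 9.2% to 12.3% in sham lung, and the Arg2 share stays under 1% in liver.

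Nitric oxide synthases are held in check or helped by partner proteins. Of 14 such genes 13 were tested in lung, where 4 were higher, 4 lower and 5 not called, with a median log2 fold change of 0.15. Over all genes tested 23.9% were called higher and 24.9% lower in lung, and 21.4% and 21% in liver. The counts of this list and of those that follow are to be read against these shares. Cav1, the caveolar protein that binds and restrains Nos3, fell in lung to 431 ± 165 CPM in CLP against 1277 ± 93.5 CPM in sham (-1.54 ± 0.25; edgeR, adjusted p = 0.00186). Calm3, a calmodulin gene, fell by 0.57 ± 0.08 on the log2 scale in lung (edgeR, adjusted p = 0.000706). Prmt1, an arginine methyltransferase whose products include an inhibitor of the synthases, rose by 0.60 ± 0.08 (edgeR, adjusted p = 0.000635). In liver 4 of 13 tested were higher and 9 not called, with a median of 0.05. Prmt1 rose there by 1.0 ± 0.11, Nos1ap, an adaptor of Nos1, by 1.10 ± 0.13, and Nostrin, which moves Nos3 away from the membrane, by 0.91 ± 0.15 (edgeR, adjusted p = 0.000286, 0.00034 and 0.0016).

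Downstream, nitric oxide binds soluble guanylate cyclase, which makes cyclic GMP. In lung 5 of 6 tested genes of this branch were lower and 1 higher, with a median of -0.85. The cyclase subunits Gucy1a1 and Gucy1b1 were lower by -0.91 ± 0.12 and -0.78 ± 0.11 (edgeR, adjusted p = 0.000583 and 0.000843). Vasp, an actin regulator phosphorylated by the cyclic GMP kinase, was higher at 1.67 ± 0.17 (edgeR, adjusted p = 0.000248). The summed CPM of 5 smooth muscle markers, a cell type in which this branch is active, was 389 to 575 in CLP lung and 432 to 523 in sham lung, and no marker of the 5 was called. Other cell types may express this branch too, and the part of cell numbers in its changes was not tested. In liver 1 of 5 tested was higher, Vasp at 1.61 ± 0.12 (edgeR, adjusted p = 6.49e-05), and 4 were not called, with a median of -0.26. Pde5a, which breaks cyclic GMP down, stood at -0.98 ± 0.35 (adjusted p = 0.0509) and Gucy1b1 at -0.49 ± 0.25 (adjusted p = 0.149), neither called by edgeR, although Pde5a passed on library totals and under upper-quartile scaling.

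Of 6 other tetrahydrobiopterin genes tested in lung 1 was higher, 3 lower and 2 not called, with a median of -0.39. The recycling enzyme Qdpr was lower by -0.48 ± 0.10, and Spr, which carries out the last step of synthesis, by -0.43 ± 0.11 (edgeR, adjusted p = 0.00415 and 0.0104). Pts, the enzyme after Gch1, was called higher in lung at 0.28 ± 0.07 (edgeR, adjusted p = 0.0121), a call lost on library totals, under upper-quartile scaling and with all 12 libraries in 1 fit. The lung call of Spr was lost without sham replicate 3. In liver Pts was the 1 gene of 7 called lower, at -0.49 ± 0.14 (edgeR, adjusted p = 0.0211), and 6 were not called, with a median of -0.24. The liver call of Pts was lost without CLP replicate 3, sham replicate 1 or sham replicate 3. Spr stood at -0.23 ± 0.09 in liver (edgeR, adjusted p = 0.0724) and was not called.

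Gchfr encodes the feedback protein that inhibits Gch1. It averaged 62.0 ± 1.34 CPM in CLP liver and 72.9 ± 5.57 CPM in sham liver and was not called (-0.24 ± 0.09; edgeR, adjusted p = 0.0702), although it passed on library totals (-0.43) and under upper-quartile scaling (-0.33). Per kilobase, Gch1 stood at 0.288, 0.384 and 0.381 times Gchfr in CLP liver, against 0.279, 0.212 and 0.248 times in sham liver. In lung Gchfr had 2 to 7 counts per library and was not tested, and the ratio of 12.5, 9.65 and 22.9 in CLP lung, against 2.67, 3.16 and 3.89 in sham lung, rests on those few counts.

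Genes of arginine transport and resynthesis were called higher in 4 of 7 cases in lung, with 3 not called and a median of 0.54. In liver 4 of 6 tested were higher, 1 lower and 1 not called, with a median of 0.95. Slc7a1 rose by 1.67 ± 0.13 in lung and 3.00 ± 0.35 in liver (edgeR, adjusted p = 8.23e-05 and 0.000386). Slc7a6, which exchanges cationic for neutral amino acids, had 59.8 ± 8.59 CPM in CLP lung against 23.0 ± 2.0 in sham lung, and 79.6 ± 4.96 CPM in CLP liver against 2.14 ± 1.51 in sham liver. Its log2 fold change was 1.40 ± 0.12 in lung and 5.25 ± 0.35 in liver (edgeR, adjusted p = 0.000113 and 6.77e-05). Slc3a2, the heavy chain that pairs with Slc7a6, rose by 0.54 ± 0.10 in lung (edgeR, adjusted p = 0.0024). Asl, which makes arginine in the urea cycle and from citrulline, had 721 ± 100.4 CPM in CLP liver against 1443 ± 143 CPM in sham liver, a log2 fold change of -1.0 ± 0.15 (edgeR, adjusted p = 0.00103).

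Of the arginase, ornithine and polyamine genes, 5 of 12 tested in lung were higher, 2 lower and 5 not called, with a median of 0.39. Odc1, which makes putrescine from ornithine, rose by 1.73 ± 0.20, Azin1, which spares it from degradation, by 1.04 ± 0.11, and Sat1, a polyamine acetyltransferase, by 0.98 ± 0.11 (edgeR, adjusted p = 0.000506, 0.000266 and 0.000253). Azin2 was lower by -0.47 ± 0.10 (edgeR, adjusted p = 0.00448). Gatm, which uses arginine for creatine synthesis, was called in opposite directions, higher in lung by 1.54 ± 0.24 and lower in liver by -1.5 ± 0.30 (edgeR, adjusted p = 0.00128 and 0.00458). In liver 2 of 12 tested were higher, 4 lower and 6 not called, with a median of -0.12. Sat1 and Odc1 rose by 1.06 ± 0.11 and 1.08 ± 0.15 (edgeR, adjusted p = 0.000216 and 0.000708).

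The genes that supply citrate or dispose of itaconate were mostly not called. In each organ 17 of 18 were tested, 0 were higher, 3 were lower and 14 were not called, with medians of -0.05 in lung and -0.12 in liver. In lung Idh2 (-0.46 ± 0.08), the exporter Abcg2 (-1.14 ± 0.23) and Aco1 (-0.27 ± 0.10) were lower (edgeR, adjusted p = 0.00271, 0.00562 and 0.045). In liver Idh1 was lower by -0.72 ± 0.19 and Clybl, of the itaconate breakdown route, by -0.31 ± 0.11 (edgeR, adjusted p = 0.016 and 0.0479). The calls of Aco1 and Clybl were each lost under 8 alternatives, that of Idh1 under 3, and that of Abcg2 under 1.

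Regulators known to respond to itaconate were called higher in 8 of 8 cases in lung, with a median of 1.88, and in 4 of 8 in liver, with 1 lower, 3 not called and a median of 0.64. Hmox1, the heme-degrading antioxidant enzyme, had 194 ± 86.6 CPM in CLP lung against 21.7 ± 1.23 in sham lung, and 298 ± 64.0 CPM in CLP liver against 45.7 ± 15 in sham liver (log2 fold change 3.19 ± 0.36 in lung and 2.7 ± 0.26 in liver; edgeR, adjusted p = 0.000613 and 0.000242). Nfkbiz, an inflammatory coactivator, rose by 3.08 ± 0.28 in lung and 1.96 ± 0.19 in liver (edgeR, adjusted p = 0.000218 and 0.000223). Gclc, the catalytic subunit of the enzyme that starts glutathione synthesis, rose by 1.94 ± 0.16 in lung (edgeR, adjusted p = 0.000101). Its partner Gclm was higher in lung by 0.91 ± 0.16 (edgeR, adjusted p = 0.00298) and lower in liver by -0.48 ± 0.13 (edgeR, adjusted p = 0.0188), a liver call lost when any of 4 single libraries was left out. Atf3, a stress transcription factor, rose by 2.65 ± 0.23 in liver (edgeR, adjusted p = 9.87e-05). These genes answer to many stimuli besides itaconate, and itaconate itself was not measured. The list was not sorted by the direction in which itaconate acts on each gene, so the count of higher calls does not measure an itaconate response.

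Of the genes of interferon gamma and NF-kB signalling, which are known to induce Nos2, Acod1 and Gch1 in macrophages, 15 of 15 tested were called higher in lung, with a median of 0.87, and 12 of 15 in liver, with 3 not called and a median of 1.13. Tnf had 50.1 ± 37.6 CPM in CLP lung against 0.291 ± 0.172 in sham lung, and 8.59 ± 5.71 CPM in CLP liver against 0.387 ± 0.239 in sham liver. Il1b, the cytokine, rose by 3.16 ± 0.12, the adaptor Myd88 by 1.68 ± 0.09 and the kinase Jak2 by 0.87 ± 0.09 in lung (edgeR, adjusted p = 8.36e-06, 2.1e-05 and 0.000199). In liver the transcription factors Cebpb and Hif1a rose by 1.76 ± 0.11 and 2.16 ± 0.17 (edgeR, adjusted p = 2.97e-05 and 7.22e-05). Irf1, which drives Nos2 in macrophages, rose by 1.06 ± 0.16 in lung (edgeR, adjusted p = 0.00137) and stood at 0.17 ± 0.15 in liver, not called (edgeR, adjusted p = 0.398). The difference of Irf1, lung minus liver, was 0.86 ± 0.24 (edgeR, adjusted p = 0.0243), and its liver value was -0.03 on library totals. Interferon gamma itself, Ifng, was too low to test, with 7 counts in all CLP lung libraries against 1 in sham lung, and 2 in CLP liver against 0 in sham liver.

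**Figure D4:**
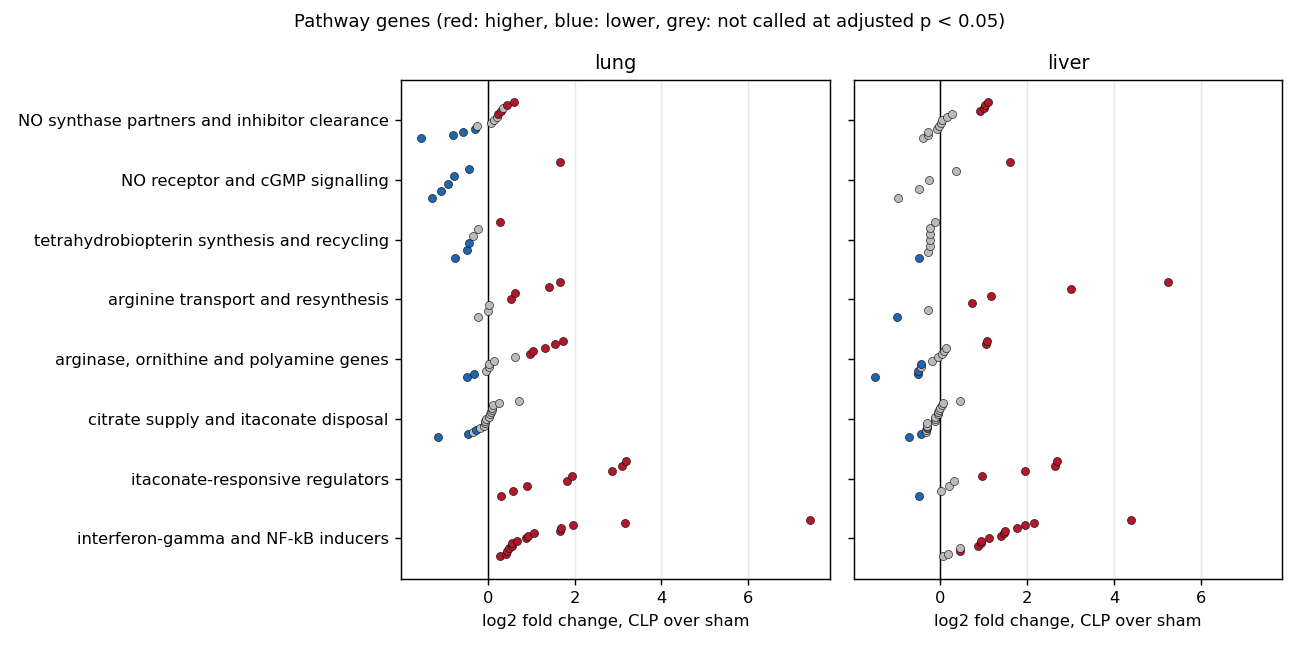
Log2 fold change of CLP over sham for every tested gene of the 8 pathway lists, with lung and liver side by side; each point is a gene, red where called higher and blue where called lower at an adjusted p of 0.05, and grey where not called. All tested genes of the itaconate-responsive and inducer lists lie above 0 in lung, with medians of 1.88 and 0.87, and the citrate list has medians of -0.05 in lung and -0.12 in liver.

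In whole tissue a change in the number of cells and a change in RNA per cell cannot be told apart, and markers of other cell types moved with surgery. Neutrophil markers were higher in 12 of 12 cases in lung, with summed CPM of 4502 to 6569 in CLP against 643 to 717 in sham. In liver 10 of 10 tested were higher, with sums of 284 to 413 CPM in CLP against 28.9 to 32.4 CPM in sham, where Camp and Ltf were at 0. Monocyte markers were higher in 7 of 8 cases in lung, with sums of 912 to 1139 CPM in CLP against 409 to 541 CPM in sham, and in 5 of 8 in liver, where the sums of 6585 to 7353 CPM in CLP and 6343 to 7269 CPM in sham overlapped. Fn1, which hepatocytes express, is 1 of those 8 and made up most of the liver sums. It was not called in liver (0.04 ± 0.12; edgeR, adjusted p = 0.833). The median log2 fold change of the 8 markers was 3.16 in lung and 2.29 in liver.

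Of the resident macrophages, Kupffer cell markers were lower in 5 of 8 cases in liver, with sums of 434 to 675 CPM in CLP against 823 to 951 CPM in sham. Alveolar macrophage markers in lung were higher in 1 and lower in 3 of 8 cases, with sums of 749 to 949 CPM in CLP against 589.8 to 726 CPM in sham. The 1 called higher was Chil3 (0.50 ± 0.15; edgeR, adjusted p = 0.0215), and Siglecf, Ear1 and Ear2 were the 3 called lower. Chil3 was also called higher in liver (4.63 ± 0.41; edgeR, adjusted p = 0.000135), so the sum does not stand for alveolar macrophages alone. Endothelial markers, the cell type of Nos3, were higher in 2 and lower in 6 of 11 cases in lung, with sums of 2537 to 2799 CPM in CLP against 3011 to 3249 CPM in sham. In liver 3 were higher and 4 lower of 11, with sums of 398 to 441 CPM in CLP against 395 to 421 CPM in sham. The part of cell numbers in the changes of the 6 genes was not tested.

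The genes nearest to each member in pattern were found by the root mean square difference of centred log2 CPM over the 12 libraries, among 14488 candidates. All 12 libraries enter, so organ and surgery both count in the likeness. Nearest to Acod1 were Tmem252 (0.7), Clec4e, a receptor of myeloid cells (0.984), and the cystine transporter Slc7a11 (0.992), with a median of 3.5 over all candidates. Nearest to Nos2 were Olfr56 (0.75), Ch25h, which makes 25-hydroxycholesterol (0.821), and Slc7a6 (1), with a median of 2.98, and Olfr56 shares 111 exonic bases with Ifi47 in the annotation. Nearest to Arg2 were Stx11 (0.372), Gadd45b (0.401) and the urokinase receptor Plaur (0.419), with a median of 2.18.

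The same search was made for the other members. The measure grows with how much a gene varies over the libraries, so it is not to be compared between members. Gch1 lay nearest to Cd302 (0.28), Tmem120a (0.313) and Errfi1 (0.329), with a median of 2.03. Slc7a2 lay nearest to Adhfe1 (0.208), Vnn3 (0.271) and Dpy19l1 (0.278), with a median of 2.22. Nos3 lay nearest to Cd68, a macrophage lysosomal protein (0.248), the integrin Itga5 (0.254) and the myosin Myh9 (0.271), with a median of 1.04.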

How the data were processed

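RNA of lung and liver was sequenced in 12 libraries, 3 per group of organ and surgery. Per the labels, libraries were made with a stranded Illumina kit. The authors deposited whole-number counts per Ensembl gene, not normalized. STAR 2.7.10a, featureCounts, FastQC, DESeq2 and the build mm39 are named in the submitters' processing notes, with no role or order. Neither the annotation release nor the strand setting of the counting was given in the sources used here. Symbols were matched for 52081 of 55414 identifiers. Exon lengths and overlaps came from GENCODE M21, which is of an older build, so only the RefSeq promoter windows have positions, on GRCm38.p6.

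Testing was by edgeR 4.0.16 (R 4.3.3): low-count filter by group (minimum count 10, minimum total 15), scaling by trimmed mean of M values, robust quasi-likelihood test, 2-sided, Benjamini-Hochberg adjustment over all genes tested at 0.05. Each organ was fitted alone on 6 libraries. The difference in response and the sham organs were fitted on all 12. SE is the log2 fold change divided by the square root of F, an approximation. Alternatives used DESeq2 1.42.0, limma 3.58.1 (voom), other scalings, no filter, left-out libraries and a replicate block. Levels are CPM on scaled library sizes, shares and ratios are per kilobase of exon union, and intervals and floors cover counting error only. Replicates of a group differed by 5.28 to 37.6 chi-square per degree of freedom over genes with at least 20 counts, so each was kept as a sample. The test was run on simulated data beforehand. Besides Arg2 and Nos3, exons of Azin1, Cebpb, Ch25h, Gclm, Hif1a, Il1b, Myd88, Nos1, Pde5a, Qdpr, Slc7a2 and Adhfe1 overlap a gene on the other strand, and those of Nos1ap, Gclm, Hif1a and Olfr56 a gene on the same strand, so their reads may be shared.

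The members, 8 pathway lists, 8 marker lists and tests were chosen with earlier results of these data known. Named genes are the members, the 3 lowest-p genes of each pathway list per organ, the lowest-p gene called against the majority of its list, and the 3 nearest genes in pattern of each member, leaving out predicted genes. Arg1, Irf1, Tnf, Ifng and the overlapping genes were named after their values were seen. Some genes that the rule names are not reported here.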

Additional observations from a re-analysis of the deposited data

Results flagged for a closer look

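In 2 of the 6 genes the response to CLP differed between the organs, by the test of the difference itself, lung minus liver on the log2 scale, in edgeR with Benjamini-Hochberg adjustment. Nos2 differed by -4.79 ± 0.98 (adjusted p = 0.0058) and Gch1 by 1.34 ± 0.20 (adjusted p = 0.000712).

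Of the pathway genes named, 14 also differed between organs. Over all genes tested 8.89% were called with a higher and 8.84% with a lower response in lung than in liver. The named genes were picked by their values in these same data, so the count of 14 describes that choice and is not a rate for the lists. Other genes of the lists also passed and are not listed. The log2 fold change in lung lay below that in liver for Slc7a6 (-3.88 ± 0.36, adjusted p = 2.85e-05), Cav1 (-1.54 ± 0.42, adjusted p = 0.0236), Nos1ap (-1.37 ± 0.22, adjusted p = 0.00112), Slc7a1 (-1.37 ± 0.37, adjusted p = 0.0237), Nostrin (-0.79 ± 0.19, adjusted p = 0.011), Jak2 (-0.63 ± 0.15, adjusted p = 0.00976), Calm3 (-0.60 ± 0.13, adjusted p = 0.0056) and Prmt1 (-0.43 ± 0.13, adjusted p = 0.0436), all by edgeR. It lay above that in liver for Gatm (3.01 ± 0.40, adjusted p = 0.0003), Gclm (1.36 ± 0.22, adjusted p = 0.00119), Azin1 (1.08 ± 0.20, adjusted p = 0.0026), Asl (0.98 ± 0.20, adjusted p = 0.00387), Irf1 (0.86 ± 0.24, adjusted p = 0.0243) and Pts (0.74 ± 0.16, adjusted p = 0.00537), again by edgeR. The calls of Prmt1, Slc7a1, Cav1, Jak2, Nostrin, Calm3 and Irf1 were lost under at least 1 alternative. Of these 14 genes Gatm (1.54 in lung, -1.50 in liver), Gclm (0.91 in lung, -0.48 in liver) and Pts (0.28 in lung, -0.49 in liver) were called higher in lung and lower in liver, the lung call of Pts and the liver calls of Pts and Gclm being lost under some alternatives.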

How the results depend on the processing

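The calls of Nos2, Acod1 and Arg2 in both organs, of Gch1 in lung, of Nos3 in liver and of the difference between organs for Nos2 and Gch1 kept their direction and their side of the threshold under all alternatives run. Over the 6 genes and 4 comparisons 350 alternative values kept both, 8 lost a call, 7 gained one and 7 changed sign. Over the named pathway genes 912 kept both, 72 lost a call, 8 gained one and 1 changed sign. Most of those genes were picked by low p in these same data. For them the difference between organs entered only where it was called, and the sham organs did not enter. That tally is therefore not a rate for the pathway lists. The signs that changed were those of Slc7a2 in lung (-0.00 under upper-quartile scaling, -0.01 without CLP replicate 3) and of the difference between organs for Nos3 (0.02 on library totals, 0.00 without CLP liver replicate 2, 0.07 and 0.02 without sham liver replicates 1 and 3, 0.20 without CLP lung replicate 3) and of Irf1 in liver (-0.03 on library totals), with ranges of -0.01 to 0.27 for Slc7a2 and -0.54 to 0.20 for Nos3 over single libraries left out, none of them called; the cause was not tested. The number of the 6 genes with a lower response in lung was 2 with DESeq2, with the replicate block and without CLP lung replicate 1, since Arg2 passed. The number higher in sham lung was 2 with limma-voom. Library totals moved the median of all genes by -0.21 in liver and -0.13 in lung, and gave 1689 genes higher and 3796 lower in liver (main 2647 and 2600) and 2977 and 4847 in lung (main 3698 and 3850). Upper-quartile scaling gave 2122 and 3144 in liver and 2929 and 4946 in lung. For the sham organs library totals gave 11983 higher and 2401 lower in lung (main 7146 and 5875).

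With single libraries left out, genes called higher and lower ran from 2952 to 4216 and 2668 to 3795 in lung, from 1998 to 2557 and 1894 to 2499 in liver, from 1062 to 1623 and 951 to 1424 for the difference in response, and from 6646 to 7316 and 5684 to 6306 for the sham organs. The 6 genes gave 4 to 5 higher in lung, 4 to 6 in liver, 1 higher and 1 to 2 lower for the difference, and 2 to 4 higher and 2 lower for the sham organs.

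The labels number replicates alike in each group but do not say what a number marks. Same-numbered libraries correlated at 0.00775 to 0.0712 in lung and 0.0371 to 0.0957 in liver in their deviations from group means. Of these libraries, 6 of 6 in liver and 4 of 6 in lung correlated best with their own number. The main fits did not pair them, and the replicate block was run as an alternative. Across organs same-numbered CLP libraries correlated at 0.0506 to 0.144, with 6 of 6 best with their own number, and sham libraries at -0.0126 to 0.073, with 4 of 6. These values do not settle whether a mouse gave both organs. The replicate block gave 3344 higher and 3526 lower genes in lung, 2649 and 2596 in liver, 1267 and 1284 for the difference and 7170 and 5872 for the sham organs, and of the calls of the 6 genes it changed only the difference of Arg2 (-1.60, adjusted p = 0.0279 in edgeR). For the difference the block was set within each organ, so it tied CLP to sham libraries and not lung to liver libraries. Whether mice shared by the organs would change the tests of the difference was therefore not tested. Depth limits Nos2, Acod1 and Arg2 in sham liver, with 3, 7 and 12 counts in all, and Gchfr in lung.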
